A study of Mus musculus with 8 samples.

Results

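The genes described here encode components of the basement membrane, together with an endocytic adaptor and a transcription factor of the extraembryonic endoderm, in mouse embryonic stem cells whose Dnmt3l was targeted by short hairpin RNAs. The 10 genes, Col4a1, Col4a2, Lama1, Lamb1, Lamc1, Nid1, Hspg2, Sparc, Dab2 and Sox7, were chosen by name, with earlier results of these data known, out of 19057 genes with a probe on the array, and every probe annotated to one of them was taken. They had 20 probes, of which 17 were detected on at least 2 arrays and were kept, so that each of the 10 genes had a value. A probe was called detected on an array where its detection p was under 0.05. RNA levels come from Illumina BeadChips, on which beads carrying a gene-specific probe give a fluorescence intensity. The cells were E14 embryonic stem cells, a line from the inner cell mass of the mouse blastocyst, grown with 15% serum and 1500 U/ml leukaemia inhibitory factor (LIF). All 4 groups received a hairpin and were held in puromycin for 3 days. The control hairpin, shGFP, targets the green fluorescent protein gene of jellyfish, and shDnmt3L1, shDnmt3L2 and shDnmt3L3 are different hairpins against Dnmt3l, the catalytically inactive partner of the de novo DNA methyltransferases. Each group had 2 arrays, and whether these came from separate cultures is not given in the sources used here, nor are the hairpins' sequences or whether the selected cells were pools or clones, so that each p-value reflects the spread of these samples alone, and that spread may be technical.

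A basement membrane is a thin sheet of extracellular matrix under epithelia. Laminins, which are trimers of an alpha, a beta and a gamma chain, and type IV collagen, a trimer of alpha chains, each form a network, and nidogen and the proteoglycan perlecan bind both. In the early mouse embryo the primitive endoderm and its parietal and visceral derivatives make large amounts of these proteins, and undifferentiated embryonic stem cells make some.

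Of the 45281 probes on the array, between 18111 and 19241 were detected on each of the 8 arrays, and the median raw intensity was between 96.1 and 104. The targeted gene was lower in each hairpin group. Dnmt3l, with log2 intensities of 11.87 and 11.97 in shGFP, was at 36.8% of the shGFP level with shDnmt3L1, at 45.4% with shDnmt3L2 and at 15.8% with shDnmt3L3. All log2 values below are background-corrected, quantile-normalized intensities, which do not compare levels between different probes. All comparisons with shGFP share the same 2 control arrays.

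Over the 3 hairpins as one group, 7 of the 10 genes rose and 2 fell against shGFP (limma, Benjamini-Hochberg adjusted p under 0.05 over 10930 genes). Only 3 of these 9 calls held once the spread between hairpins entered the error in part, in the fit with a random block described below. Of all genes tested, 27.5% were called higher and 24.7% lower in that comparison. Col4a1, Col4a2, Hspg2 and Dab2 had log2 differences between 0.97 and 1.25, and Lama1 and Lamc1 of 0.60 and 0.39. Lamb1, not detected in shGFP, was at least 1.15-fold higher. It passed the filter only through hairpin arrays where it was higher, so its rise is no independent count. Sparc and Sox7 were called lower, by -0.30 and -0.22, and Nid1 differed by -0.04. The median difference of the 10 genes was 0.53, against 0.0057 over all genes, and 0.50 with Lamb1 set at that bound. In bulk RNA, a change in the number of cells that express a gene and a change in its RNA per cell cannot be told apart.

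With the hairpin as a random block, so that the spread between hairpins enters the error in part, 3 of the 10 genes were still called higher, against 2.05% of all genes. These were Col4a1 and Col4a2, each with a limma adjusted p of 0.00919, and Hspg2, with 0.0155. The calls of the other 6 were lost, Lama1, Lamb1, Lamc1 and Dab2 having adjusted p-values of 0.368, 0.318, 0.227 and 0.256, Sparc 0.310 and Sox7 0.595. The targeted gene, Dnmt3l, had an adjusted p of 0.052 in that fit. The fit used the same correlation between arrays of a group, 0.69, for all genes. Duplicate arrays still add to the replication behind its p-values. The 3 calls are thus not from a test with each hairpin as a single unit, which was not run.

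**Figure D1:**
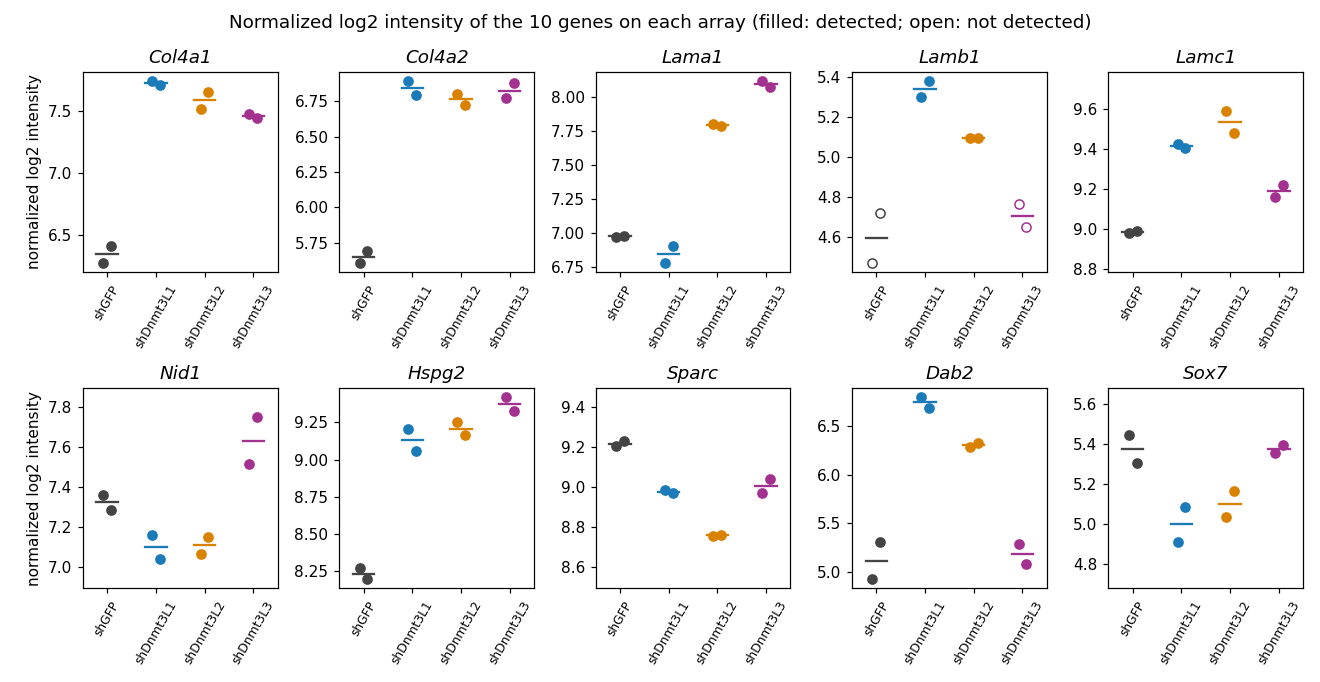
Normalized log2 intensity (y axis, own scale for each gene) of the 10 genes on each of the 8 arrays, by hairpin group (x axis), with lines at the group means and open points where the probe was not detected. For Col4a1, Col4a2, Lamc1 and Hspg2 all 6 hairpin arrays lie above both shGFP arrays, and for Sparc all 6 lie below them.

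Both type IV collagen genes rose with every hairpin. Col4a1 and Col4a2 encode the alpha chains of the type IV collagen found in most basement membranes, and they lie head to head on chromosome 8. Because the pair moved together, their start regions are shown, as RefSeq gives them on GRCm38.p6. Each window covers 250 bases before to 50 bases after the start of the gene. The Col4a1 window is chr8:11312777-11313076 on the minus strand and the Col4a2 window is chr8:11312555-11312854 on the plus strand. Capitals mark the 78 bases that both windows hold, read from opposite strands.
Col4a1: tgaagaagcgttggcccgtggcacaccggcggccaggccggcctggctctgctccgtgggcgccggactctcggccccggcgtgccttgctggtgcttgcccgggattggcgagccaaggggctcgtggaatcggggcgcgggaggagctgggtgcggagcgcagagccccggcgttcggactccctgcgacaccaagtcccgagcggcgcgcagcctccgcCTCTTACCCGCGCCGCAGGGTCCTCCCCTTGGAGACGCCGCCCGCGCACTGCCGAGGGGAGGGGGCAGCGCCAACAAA
Col4a2: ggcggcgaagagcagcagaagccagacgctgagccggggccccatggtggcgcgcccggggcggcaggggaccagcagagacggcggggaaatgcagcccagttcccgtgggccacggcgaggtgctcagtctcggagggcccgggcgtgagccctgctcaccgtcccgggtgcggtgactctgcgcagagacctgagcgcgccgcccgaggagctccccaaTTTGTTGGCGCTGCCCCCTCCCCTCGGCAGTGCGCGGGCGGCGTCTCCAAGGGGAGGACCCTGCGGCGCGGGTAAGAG
The union of these windows spans 522 bases and holds 61 CG dinucleotides, 9 of them in the shared stretch. The Col4a1 window holds 37 CG, more than 94.4% of the 32851 RefSeq windows of this length, and the Col4a2 window holds 33, more than 91.4% of them, against a median of 7. Each window holds the letters CCAAT 1 time on either strand, as do 37.4% of all windows at least once, and neither holds TATAAA, which is in 13.6%. The letters GGGCGG occur 1 time in the Col4a1 window and 3 times in the Col4a2 window, and at least once in 35.7% of all windows.

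The log2 intensity of Col4a1 was 6.27 and 6.41 for shGFP, 7.74 and 7.70 for shDnmt3L1, 7.52 and 7.65 for shDnmt3L2, and 7.48 and 7.44 for shDnmt3L3. The control arrays were low and apart from all the others. Over the 3 hairpins the difference was 1.25 ± 0.07 (SE), 2.37-fold, with a limma adjusted p of 5.94e-06. The raw intensities show the same order, at 142 and 153 in shGFP and from 251 to 306 on the hairpin arrays. Among the hairpin groups, Col4a1 was lower with shDnmt3L3 than with shDnmt3L1 by -0.26 ± 0.08 (adjusted p = 0.0407 at gene level, 0.0568 when all kept probes were fitted).

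Col4a2 gave log2 intensities of 5.61 and 5.69 for shGFP, 6.90 and 6.79 for shDnmt3L1, 6.81 and 6.72 for shDnmt3L2, and 6.78 and 6.88 for shDnmt3L3. Again no hairpin array came near the controls, and the 3 hairpin groups overlapped each other. The difference over the 3 hairpins was 1.16 ± 0.07, 2.24-fold (adjusted p = 7.74e-06). It was 0.51 without background correction, still called. The raw intensities were 118 and 122 in shGFP, near background, and from 186 to 208 on the hairpin arrays. Differences between hairpin groups ranged from -0.08 to 0.06, each with an SE of 0.08, and none was called. After each gene was centred on its own mean over the 8 arrays, Col4a2 was the 12th closest of 10929 genes to Col4a1, with a mean absolute log2 difference of 0.104.

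Perlecan, the heparan sulphate proteoglycan of basement membranes, is encoded by Hspg2. Its probe with the highest mean read 8.27 and 8.20 for shGFP, 9.21 and 9.06 for shDnmt3L1, 9.25 and 9.17 for shDnmt3L2, and 9.42 and 9.33 for shDnmt3L3. All hairpin arrays stood above the controls. The rise was 1.00 ± 0.07, 2.00-fold (limma adjusted p = 1.51e-05), and it was called with each hairpin, at 0.90, 0.97 and 1.14 for shDnmt3L1, shDnmt3L2 and shDnmt3L3. A second Hspg2 probe gave 0.77, 0.83 and 1.23 in the same order. The probes did not give the same answer on the hairpins. The first showed no called difference between hairpin groups, whereas with the second shDnmt3L3 was above shDnmt3L1 by 0.46 ± 0.08 (adjusted p = 0.00407) and above shDnmt3L2 by 0.40 ± 0.08 (adjusted p = 0.00609).

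The laminin chains did not share one pattern. Lama1, Lamb1 and Lamc1 encode the alpha, beta and gamma chains of the laminin trimer of the earliest embryonic basement membranes. For Lama1 the values were 6.97 and 6.98 for shGFP, 6.78 and 6.91 for shDnmt3L1, 7.80 and 7.79 for shDnmt3L2, and 8.12 and 8.08 for shDnmt3L3. Both shDnmt3L1 arrays lay below the controls, and the 4 arrays of the other hairpins lay far above them. Raw intensities with shDnmt3L1 were not lower, at 199 and 208 against 185 and 191 in shGFP. The lower position of shDnmt3L1 thus appears only after background correction and normalization. The difference from shGFP was -0.13 ± 0.08 with shDnmt3L1 (limma adjusted p = 0.187), 0.82 ± 0.08 with shDnmt3L2 (adjusted p = 1.56e-04) and 1.12 ± 0.08 with shDnmt3L3 (adjusted p = 1.18e-05). Every pair of hairpin groups differed in Lama1, shDnmt3L3 exceeding shDnmt3L1 by 1.26 ± 0.08 and shDnmt3L2 by 0.30 ± 0.08, and shDnmt3L2 exceeding shDnmt3L1 by 0.95 ± 0.08. The value over the 3 hairpins, 0.60 ± 0.06, was 0.97 without the shDnmt3L1 group and 0.34 without the shDnmt3L3 group, with an adjusted p of 0.368 with the hairpin as a random block.

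Lamb1 was dim. Its only probe had raw intensities of 93.1 and 99.9 for shGFP, 123 and 125 for shDnmt3L1, 116 and 114 for shDnmt3L2, and 105 and 104 for shDnmt3L3. It was detected on the 4 arrays of shDnmt3L1 and shDnmt3L2 and on no array of shGFP or shDnmt3L3, so it passed the filter only through the groups where it was higher. A fold against a group where it was not detected is a bound, set on each such array against the higher of the probe's own value and the lowest value of any detected probe. Lamb1 was at least 1.40-fold higher with shDnmt3L1 (measured log2 means 5.34 against 4.60, limma adjusted p = 4.34e-04) and at least 1.19-fold higher with shDnmt3L2 (5.09 against 4.60, adjusted p = 0.00448). Between shDnmt3L3 and shGFP no fold can be given.

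The gamma chain gene Lamc1, at its probe with the highest mean, read 8.98 and 8.99 for shGFP, 9.42 and 9.41 for shDnmt3L1, 9.59 and 9.48 for shDnmt3L2, and 9.16 and 9.22 for shDnmt3L3. No hairpin array overlapped the controls, and the shDnmt3L3 arrays lay nearest to them. The difference was 0.43 ± 0.08 with shDnmt3L1 and 0.55 ± 0.08 with shDnmt3L2 (limma adjusted p = 0.00194 and 8.93e-04), both called, and 0.20 ± 0.08 with shDnmt3L3, which missed the threshold (adjusted p = 0.0503) and passed it under 7 of 17 alternative settings. Lamc1 was lower with shDnmt3L3 than with shDnmt3L2 by -0.34 ± 0.08 and than with shDnmt3L1 by -0.23 ± 0.08, the latter with an adjusted p of 0.0475 among genes and 0.0684 among all kept probes. At the second probe of Lamc1, the difference was 0.46 ± 0.09 with shDnmt3L2, called, but 0.18 ± 0.09 with each of the others, not called, and shDnmt3L3 minus shDnmt3L1 was 0.0020.

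**Figure D2:**
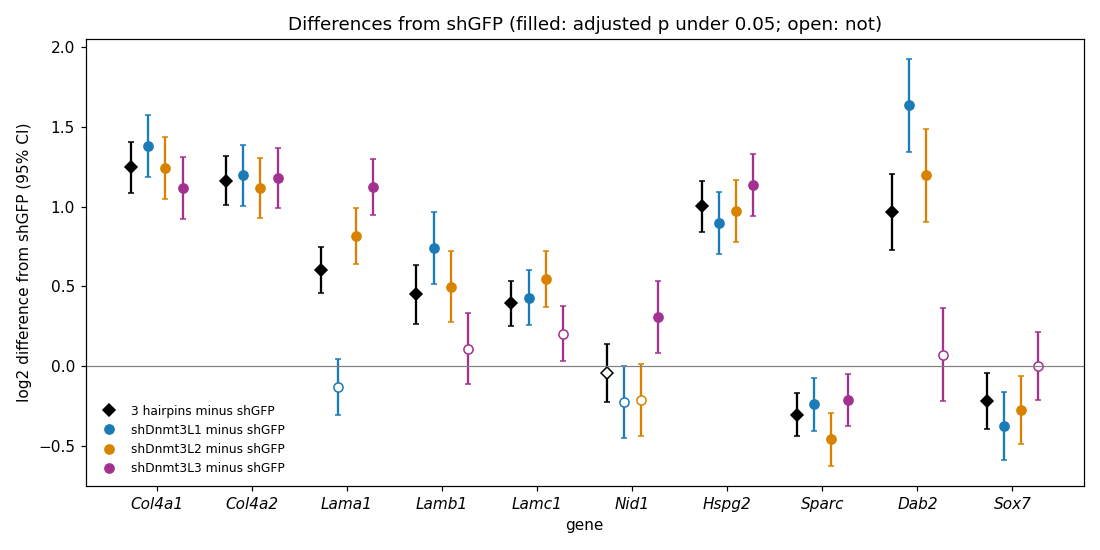
Log2 difference from shGFP (y axis, with 95% confidence intervals of the limma fit) for each of the 10 genes (x axis), over the 3 hairpins and for each hairpin, filled where the adjusted p is under 0.05. Col4a1, Col4a2 and Hspg2 lie between 0.90 and 1.38 with every hairpin, while Dab2 reaches 1.64 with shDnmt3L1 and 0.07 with shDnmt3L3.

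Nid1, which encodes nidogen, the link between the laminin and collagen networks, was not called over the 3 hairpins. Its values were 7.36 and 7.28 for shGFP, 7.16 and 7.04 for shDnmt3L1, 7.06 and 7.15 for shDnmt3L2, and 7.51 and 7.75 for shDnmt3L3. The shDnmt3L3 arrays lay above the controls and the other hairpin arrays below them. With shDnmt3L3 the difference was 0.31 ± 0.10 (limma adjusted p = 0.0278), with shDnmt3L1 -0.22 ± 0.10 and with shDnmt3L2 -0.21 ± 0.10, the last 2 not called. Nid1 was higher with shDnmt3L3 than with shDnmt3L1 by 0.53 ± 0.10 and than with shDnmt3L2 by 0.52 ± 0.10. The rise with shDnmt3L3 became 0.19 without that group's replicate 2, and a second Nid1 probe gave -0.02 ± 0.11 with shDnmt3L3. At the second probe shDnmt3L3 exceeded shDnmt3L1 by 0.36 ± 0.11, called, and shDnmt3L2 by 0.20 ± 0.11, not called. That probe was called lower with shDnmt3L1 than with shGFP, at -0.38 ± 0.11. Before correction the used probe read 220 on both control arrays, from 220 to 233 with shDnmt3L1 and shDnmt3L2, and 255 and 304 with shDnmt3L3.

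Sparc, which encodes a collagen-binding glycoprotein that parietal endoderm secretes in quantity, moved the other way. At its probe with the highest mean it read 9.20 and 9.23 for shGFP, 8.99 and 8.97 for shDnmt3L1, 8.76 and 8.76 for shDnmt3L2, and 8.97 and 9.04 for shDnmt3L3. Every hairpin array was below the controls. Sparc fell by 0.30 ± 0.06 on the log2 scale over the 3 hairpins (limma adjusted p = 0.0027, and 0.310 with the hairpin as a random block), and shDnmt3L2, at -0.46 ± 0.07, gave a lower level than shDnmt3L3, at -0.21 ± 0.07, by a called margin of 0.25 ± 0.07. The fall and the margin between these hairpins rest on this probe. The other Sparc probes each gave -0.15 over the 3 hairpins (SE 0.07 and 0.09), and neither was called. The first of them, detected on all 8 arrays, gave -0.01, -0.24 and -0.18 with shDnmt3L1, shDnmt3L2 and shDnmt3L3, none called. The last was detected on 4 arrays only, with raw intensities from 101 to 113, near background. Under 17 alternative settings the call of the gene was lost 6 times with shDnmt3L1 and 8 times with shDnmt3L3.

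Dab2 encodes an endocytic adaptor protein of the visceral and primitive endoderm. Its probe with the highest mean read 4.92 and 5.30 for shGFP, 6.80 and 6.69 for shDnmt3L1, 6.29 and 6.33 for shDnmt3L2, and 5.28 and 5.08 for shDnmt3L3. The shDnmt3L3 arrays lay between the controls, and the other 4 arrays stood clear of both groups. Dab2 rose 3.11-fold with shDnmt3L1 (1.64 ± 0.13, limma adjusted p = 3.31e-05) and 2.29-fold with shDnmt3L2 (1.20 ± 0.13, adjusted p = 2.63e-04), while shDnmt3L3 gave 0.07 ± 0.13 (95% interval -0.22 to 0.36). The direct comparison put shDnmt3L3 below shDnmt3L1 by -1.56 ± 0.13 and below shDnmt3L2 by -1.12 ± 0.13, both called. The difference over the 3 hairpins, 0.97 ± 0.10, was 0.63 without the shDnmt3L1 group, and its adjusted p was 0.256 with the hairpin as a random block. The 1.64 with shDnmt3L1 became 0.64 without background correction, 1.04 with an offset of 50 and 1.08 as a mean of probes, each still called.

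A second Dab2 probe, detected on 7 of the 8 arrays, gave the same order, at 1.25 ± 0.16, 0.80 ± 0.16 and -0.22 ± 0.16 for shDnmt3L1, shDnmt3L2 and shDnmt3L3. Of the others, one was detected only with shDnmt3L1, and the last was detected on no array and was not kept.

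Sox7 encodes a transcription factor of the primitive and parietal endoderm. The probe that gave it a value is annotated to a cDNA clone, and the 2 probes annotated to its RefSeq transcript were detected on no array. At the clone's probe the values were 5.44 and 5.30 for shGFP, 4.91 and 5.09 for shDnmt3L1, 5.03 and 5.17 for shDnmt3L2, and 5.35 and 5.39 for shDnmt3L3. The shDnmt3L3 arrays lay within the range of the controls and the other hairpin arrays below it. The difference was -0.38 ± 0.09 with shDnmt3L1 (limma adjusted p = 0.0107), -0.27 ± 0.09 with shDnmt3L2 (adjusted p = 0.0472) and -0.00034 with shDnmt3L3. The raw intensities were not lower: 114 and 112 in shGFP and from 113 to 123 on the hairpin arrays, so the fall appears after background correction and normalization. Over the 3 hairpins, -0.22 ± 0.08 was called among genes (adjusted p = 0.042), not among all kept probes (adjusted p = 0.0538), and the call was lost under 15 of 21 alternative settings.

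**Figure D3:**
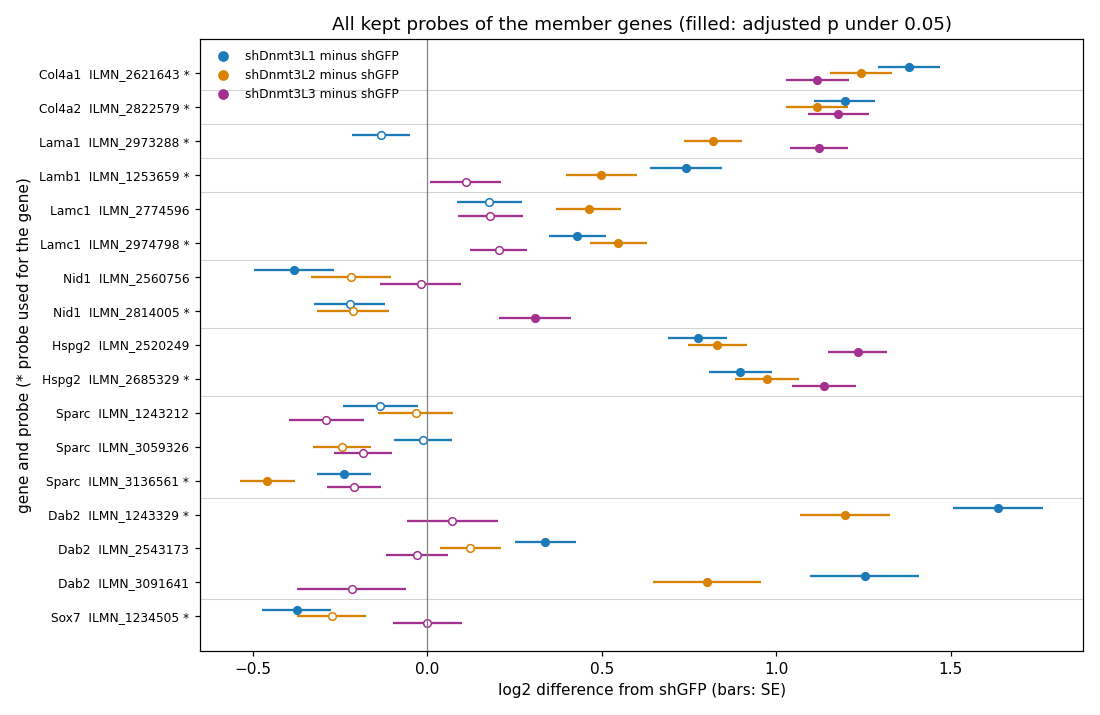
Log2 difference from shGFP (x axis, points with SE bars) at each of the 17 kept probes of the 10 genes (y axis, the probe used for the gene starred), for each hairpin and filled where called among all kept probes. Both Hspg2 probes are called with every hairpin, while only 1 of the 3 Sparc probes is called with any.

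Fitted probe by probe, 10 of the 17 kept probes were called higher over the 3 hairpins and 1 lower, against 22.7% and 23.3% of the 20754 kept probes. The 10 covered every gene called higher, and the 1 lower was the Sparc probe described above. Among the 10 is the Lamb1 probe, which passed the filter only through hairpin arrays. Where all 6 hairpin arrays are asked to lie outside both controls, 4 of the 10 genes (Col4a1, Col4a2, Lamc1 and Hspg2) lay above, as did 21.4% of all genes, and 1 (Sparc) lay below, as did 19.9%.

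Taken hairpin by hairpin, 6 of the 10 genes rose and 2 fell with shDnmt3L1, against 25.2% and 22.6% of all genes. With shDnmt3L2, 7 rose and 2 fell, against 20.8% and 18.3%. Lamb1 is counted among the rises with shDnmt3L1 and shDnmt3L2, the groups through which alone it passed the filter. With shDnmt3L3, 5 rose (Col4a1, Col4a2, Lama1, Nid1 and Hspg2) and 1 fell (Sparc), against 27.1% and 25.1%. The median difference of the 10 genes was 0.59, 0.68 and 0.26 in that order, and 0.46, 0.68 and 0.31 with Lamb1 at its bound or, with shDnmt3L3, left out.

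The hairpins were then compared with each other. An F test of equal means in the 3 hairpin groups was called for 7 of the 10 genes (Lama1, Lamb1, Lamc1, Nid1, Sparc, Dab2 and Sox7), against 44.8% of all genes. Lamb1 was detected with shDnmt3L1 and shDnmt3L2 and not with shDnmt3L3, and it passed the filter only through those groups, so its test is no independent count. Col4a1, Col4a2 and Hspg2 were not called, with adjusted p-values of 0.0776, 0.683 and 0.103. For Hspg2 this depends on the probe, as its second probe was called by the F test among all kept probes (adjusted p = 0.00514). Between shDnmt3L2 and shDnmt3L1, 1 gene, Lama1, was called (8.05% of all genes). Between shDnmt3L3 and shDnmt3L1, 3 genes were higher with shDnmt3L3 (Lama1, Nid1 and Sox7), against 17.7% of all genes. The 4 lower (Col4a1, Lamb1, Lamc1 and Dab2) stand against 17.6%, and 35.3% were called in either direction. Between shDnmt3L3 and shDnmt3L2, 4 were higher with shDnmt3L3 (Lama1, Nid1, Sparc and Sox7), against 21.8% of all genes. The 3 lower (Lamb1, Lamc1 and Dab2) stand against 20.4%, and 42.2% were called in either direction.

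Start windows were at hand for 7 of the 10 genes, and Lama1, Lamc1 and Sox7 are named only. Beside the collagen pair, CG dinucleotides numbered 27 in the Hspg2 window, 20 in that of Nid1 and 18 in that of Lamb1. Dab2 has 2 windows, with 2 and 19, and the Sparc window holds 4, more than 31.4% of all windows. The Sparc window and both Dab2 windows hold none of the 3 motifs above on either strand, while GGGCGG occurs 5 times in the Hspg2 window.

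Of 31 other listed components of the basement membrane, 14 were measured, and 13 of the 31 were detected on no array. Over the 3 hairpins 6 of the 14 rose and 8 were not called, against 27.5% higher and 24.7% lower of all genes. The largest rises were in Fbln1 and Fbln2, the fibulins, at 1.36 ± 0.07 and 1.25 ± 0.08, and in the laminin chain gene Lamb3, at 1.25 ± 0.12, which was detected on 1 of the 2 control arrays. Fbln1 rose by 1.35, 1.21 and 1.52 and Fbln2 by 1.27, 1.07 and 1.41 with shDnmt3L1, shDnmt3L2 and shDnmt3L3. With shDnmt3L3 alone 6 of the 14 rose and 1 was called lower, against 27.1% and 25.1% of all genes. The lower gene was Col4a6, at a fitted -0.37, named after its value was seen. It was detected on 3 of the 8 arrays and on none with shDnmt3L3. Over the 3 hairpins the median of the 14 was 0.22. Among receptors for these proteins, 7 of 15 measured rose and 1 fell, against 27.5% and 24.7% of all genes, with a median of 0.24. The integrin genes Itgb5 and Itgav rose by 0.66 ± 0.07 and 0.42 ± 0.07 and the dystroglycan gene Dag1 by 0.48 ± 0.07, and Itga9, another integrin gene, fell by 0.61 ± 0.11.

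The machinery that folds and exports collagen moved in both directions, with 9 of 19 measured genes higher, 5 lower and a median of -0.04. Of all genes, 27.5% were called higher and 24.7% lower over the 3 hairpins. Serpinh1, the collagen chaperone, rose with each hairpin, by 1.68, 1.37 and 1.72 with shDnmt3L1, shDnmt3L2 and shDnmt3L3 (1.59 ± 0.07 over the 3, limma adjusted p = 3.38e-06). The prolyl hydroxylase genes P4ha1 and P4ha2 rose by 0.76 ± 0.10 and 0.67 ± 0.06. Lower were the prolyl isomerase genes Fkbp14 and Ppib, at -0.62 ± 0.08 and -0.40 ± 0.07, and the coat protein gene Sec13, at -0.31 ± 0.06. Of 13 measured matrix proteases and their inhibitors 7 rose and 2 fell, against those shares of all genes, with a median of 0.31. Mmp2, a gelatinase that cleaves type IV collagen, rose by 1.45 ± 0.07. The metalloproteinase inhibitor gene Timp3 rose by 0.72 ± 0.10, and Timp2, not detected on either control array, was at least 1.24-fold higher. Timp2, counted among the 7, passed the filter only through hairpin arrays. The serine protease gene Htra1 fell by 0.88 ± 0.06 and the cathepsin gene Ctsl by 0.44 ± 0.08.

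**Figure D4:**
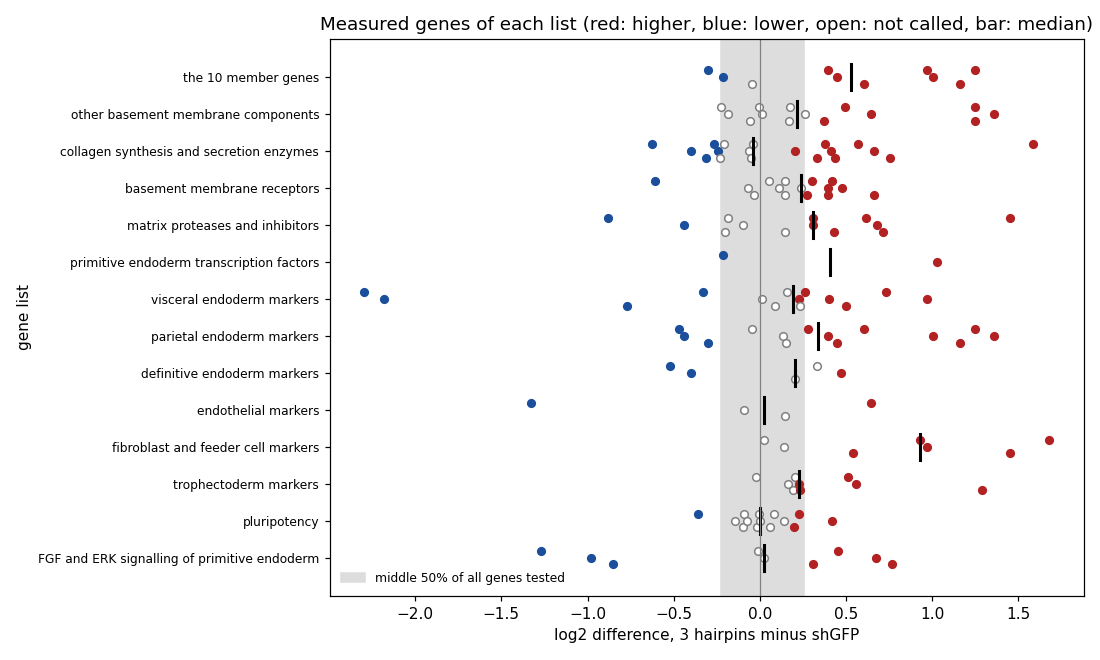
Log2 difference over the 3 hairpins minus shGFP (x axis) of each measured gene in the 10 genes and in 13 further lists (y axis), red where called higher, blue where called lower, open where not called, with the list's median as a bar and the middle 50% of all genes (-0.23 to 0.25) shaded. Some genes are in several lists, and genes not detected in shGFP are drawn at their fitted value.

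Of the extraembryonic endoderm lists, some members were measured and others were not detected. Of 8 transcription factor genes of the primitive endoderm, Gata4, Gata6, Sox17, Foxa1 and Foxa2 were detected on no array. Hnf4a, a nuclear receptor of the visceral endoderm, was detected on all 8 arrays and rose with every hairpin, by 1.01, 0.96 and 1.11 (1.03 ± 0.13 over the 3, limma adjusted p = 2.65e-04). Of 18 parietal endoderm markers 14 were measured, 8 of them among the 10 genes above. Over the 3 hairpins 8 of the 14 were higher and 3 lower, against 27.5% and 24.7% of all genes, with a median of 0.34. Col4a1, Col4a2, Lama1, Lamb1, Lamc1 and Hspg2 are among these rises and Sparc among the falls. The counts and the median thus largely repeat results given above, and Lamb1 passed the filter only through hairpin arrays. Among the markers outside the 10 genes, Fbln1, described above, had the largest rise of the list, at 1.36. Fst, an activin antagonist, fell by 0.47 ± 0.09, and Ctsl fell as given above. Fst was detected on 5 of the 8 arrays and on none with shDnmt3L3. Thbd was detected on no array, and no Pdgfra probe was detected on more than 1 array. Visceral endoderm markers gave 6 higher and 4 lower of 14 measured, Dab2 included, against the same all-gene shares, with a median of 0.19. Of the 26 listed, 10, Afp and Ttr among them, were detected on no array. The apolipoprotein gene Apoa2, detected on 1 of the 2 control arrays, rose by 0.73 ± 0.09. Apoa1, detected on 4 hairpin arrays and no control array, was at least 1.21-fold higher and passed the filter only through hairpin arrays. The homeobox gene Rhox5, the protease inhibitor gene Spink1 and the apolipoprotein gene Apom fell by 2.30 ± 0.07, 2.18 ± 0.07 and 0.77 ± 0.12. The summed raw intensity of the visceral list was 6556 and 6861 in shGFP and from 3497 to 4574 on the hairpin arrays. Such a sum weighs the brightest genes most, and the list's median log2 difference was positive. Of the definitive endoderm list 5 genes were measured, with 1 higher and 2 lower, against the same all-gene shares. Gsc, detected on 5 hairpin arrays and no control array, was at least 1.11-fold higher and passed the filter only through hairpin arrays. Fgf17 and Cxcr4 fell by 0.52 ± 0.07 and 0.40 ± 0.08.

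Markers of other cells that could add to these values were read against the same all-gene shares, 27.5% higher and 24.7% lower. On the fibroblast and feeder cell list 5 of 7 measured genes rose and 2 were not called, with a median of 0.93, while 8 of the 16 listed, Col1a1 and Col1a2 among them, were detected on no array. Acta2, smooth muscle actin, rose by 1.68 ± 0.08 and the surface glycoprotein gene Thy1 by 0.97 ± 0.07, beside Mmp2. The list's summed raw intensity was 1996 and 2130 for shGFP, 3762 and 3898 for shDnmt3L1, 3315 and 3147 for shDnmt3L2, and 3164 and 3368 for shDnmt3L3, and its part in the rises above was not tested. Endothelial markers, 4 measured of 12, gave 1 higher (Eng, at 0.64 ± 0.07) and 1 lower (Esam, at -1.33 ± 0.07, detected on 2 of the 6 hairpin arrays), with summed intensities of 798 to 833 in shGFP and 829 to 991 on the hairpin arrays. Kdr was detected on no array and no Cdh5 probe on more than 1. Trophectoderm markers gave 5 higher and 4 not called of 9 measured, with the keratin genes Krt7 and Krt18 at 1.29 ± 0.11 and 0.56 ± 0.09, and Cdx2 was detected on no array. Krt7 was detected on 1 of the 2 control arrays, and Gata2, counted among the 5, was detected on the 2 shDnmt3L3 arrays alone and passed the filter only through them. With shDnmt3L3 alone, 5 trophectoderm genes were higher and 2 lower, against 27.1% and 25.1% of all genes. The 2 were Eomes and Tead4, at -0.45 and -0.44, named after their values were seen. Eomes was detected on no shDnmt3L3 array, so its value there is only the fitted one.

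On the pluripotency list all 14 genes were measured and the median was 0.00078. Over the 3 hairpins 3 rose and 1 fell, against 27.5% and 24.7% of all genes. The hairpins differed in these counts, with 1 higher and 5 lower with shDnmt3L1 (median -0.06), 4 higher and 1 lower with shDnmt3L2 (0.21) and 4 higher and 3 lower with shDnmt3L3 (0.15). The defining genes Pou5f1 and Nanog were detected on all 8 arrays and differed by 0.0035 ± 0.07 and -0.01 ± 0.06 over the 3 hairpins, though Pou5f1 was called higher with shDnmt3L2, at 0.24, and lower with shDnmt3L3, at -0.40. Klf2, Prdm14 and Tbx3 rose by 0.42 ± 0.07, 0.23 ± 0.07 and 0.20 ± 0.07, and Klf5 fell by 0.36 ± 0.06. FGF and ERK signalling drives the choice of primitive endoderm in the blastocyst. Of its 9 measured genes 4 rose and 3 fell over the 3 hairpins, against 27.5% and 24.7% of all genes. The ligand gene Fgf4 and the kinase gene Map2k1 rose by 0.67 ± 0.08 and 0.45 ± 0.12. The receptor gene Fgfr1, not detected in shGFP, was at least 1.55-fold higher. Fgfr1, counted among the 4, passed the filter only through hairpin arrays. The feedback inhibitor genes Spry4 and Dusp6 and the target gene Etv4 fell by 1.27 ± 0.11, 0.85 ± 0.08 and 0.98 ± 0.10.

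The genes whose values over the 8 arrays were most like those of 5 of the 10 were found as for the collagen pair. For Col4a1 these were Epb41l1, Igdcc4, Ptp4a3, Nfatc4 and Wwc2, with mean absolute log2 differences of 0.069 to 0.087, against a median of 0.486 over all genes. The genes nearest to Lama1 were Adgrd1, Jdp2, Gpt2, Susd2 and Pga5, at 0.163 to 0.184 (median 0.522). Nearest to Dab2 were Runx1t1, Prickle2, Lefty1, Lhpp and Hormad2, at 0.118 to 0.139 (median 0.695). Cklf, Paip2b, Bfar, Nbdy and Msl2 were nearest to Sparc, at 0.029 to 0.041 (median 0.214), and Khdrbs3, Cstf2, Dap3, Upk2 and Orc6 to Sox7, at 0.034 to 0.047 (median 0.221). None of these sets held another of the 10 genes. Hspg2 was the 25th closest gene to Col4a2.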

How the data were processed

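Raw intensities, deposited by the authors without normalization and summarised with GenomeStudio 2011.1 per the submitters' processing notes, were read with the deposited p-value per probe and array, taken as the detection p. How the authors made their processed intensities is not given in the sources used here. These ran from -15.4 to 25910, had the same rank order as the raw intensities on every array, and served as an alternative. The deposited tables name probes, and genes came from the platform annotation: 34885 of 45281 probes had 1 gene, 18 several and 10378 were not listed. Symbols were updated through gene IDs for 34807.

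Background correction from the detection p, an offset of 16, quantile normalization and log2 were done with neqc (limma 3.58.1, R 4.3.3). Probes detected on fewer than 2 arrays were left out, keeping 20754, and the probe with the highest mean stood for each of 10930 genes. A model of 4 group means was fitted with lmFit and eBayes to all 8 arrays, with 4 residual degrees of freedom and a prior of 4.64. Tests were two-sided, with Benjamini-Hochberg adjustment over all genes or kept probes and calls under 0.05. The fit was tested on simulated data. The number of arrays limits the precision, and no chip or slide was named, so no such batch was tested.

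The 10 genes, the 13 other lists and the rule for named genes (all 10 with every probe; up to 3 called rises and 3 falls a list; defining markers; the 5 most alike of 5 genes) were chosen with earlier results of these data known. Promoter windows are RefSeq's on GRCm38.p6, matched by symbol for 7 of 10. The alternatives covered scaling, background, offset, filter, probe rule, spread, block and each array or hairpin group left out.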

Additional observations from a re-analysis of the deposited data

Results flagged for a closer look

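The following genes were singled out because the 3 hairpin groups, which target the same gene, differed from each other in the limma F test. Lama1 had an adjusted p of 2.36e-05, Dab2 9.46e-05, Lamb1 0.00281 (a gene that passed the detection filter only through shDnmt3L1 and shDnmt3L2), Nid1 0.00365, Lamc1 0.0156, Sox7 0.0255 and Sparc 0.0376. The same test called 44.8% of all genes. Dab2 and Lamb1 were lower with shDnmt3L3 than with both other hairpins, and Lama1, Nid1 and Sox7 were higher. A second Nid1 probe put shDnmt3L3 above shDnmt3L2 by 0.20 ± 0.11, not called. Lamc1 was lower with shDnmt3L3 than with shDnmt3L2 at both its probes and than with shDnmt3L1 at 1 of them. Sparc was lower with shDnmt3L2 than with shDnmt3L3. Dnmt3l was lowest with shDnmt3L3, at 15.8% of shGFP.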

How the results depend on the processing

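Of 910 recomputed values under 21 alternatives, 3 of them (each hairpin group left out) chosen after seeing the data, 789 kept their direction and their side of the threshold or stayed within 1.5 times the count. The 11 that changed sign were not called on either side. Median scaling turned Lama1 with shDnmt3L1 to 0.050, Nid1 over the 3 hairpins to 0.087 and Sox7 with shDnmt3L3 to 0.081. Nid1 over the hairpins was 0.047 without the shDnmt3L1 group and 0.043 without the shDnmt3L2 group, and Dab2 with shDnmt3L3 was -0.058 as a mean of probes. With single arrays left out, values with shDnmt3L3 ran from -0.12 to 0.26 for Dab2, from -0.015 to 0.23 for Lamb1 and from -0.071 to 0.070 for Sox7. Col4a1, Col4a2 and Hspg2 kept every call against shGFP under all alternatives, though without background correction Col4a1 was 0.71 and Col4a2 0.51, with Dab2 at 0.36 and Lamb1 at 0.13. The 7 genes called higher over the 3 hairpins became 3 with the hairpin as a random block, and the 2 called lower became 0. There Dnmt3l, at -1.75, had an adjusted p of 0.052, and 323 of all genes were called in place of 5707. The count lower over the 3 hairpins was 1 with an intensity trend, median scaling, no background correction, no detection filter, an offset of 50, the replicate block, or without the shDnmt3L1 or the shDnmt3L2 group, 3 without the shDnmt3L3 group, where Nid1 was called at -0.22, and 1 to 2 with single arrays left out. The count lower with shDnmt3L1 was 0 with median scaling, 1 without background correction and 0 to 2 with single arrays left out. With shDnmt3L2 it was 1 with the authors' processed intensities, an intensity trend, median scaling, no background correction, no detection filter, an offset of 50 or the replicate block, and 1 to 2 with single arrays left out. With shDnmt3L3 it was 0 with median scaling or the replicate block and 0 to 1 with single arrays left out, and the count higher ranged from 4 to 6. The lower probes were 2 in place of 1 without background correction. The F test called 4 to 6 genes with single arrays left out, 4 without shDnmt3L3 replicate 1. Median scaling moved the median of all genes to 0.07 and the higher share of calls from 52.6% to 63.8%. Dab2 was 0.57 and Sparc -0.20 as a mean of probes. Lamb1 was not tested among genes detected on all 8 arrays. Same-numbered arrays did not deviate together (correlations from -0.010 to 0.037), and the replicate block gave 5642 calls. Such correlations cannot tell whether same-numbered samples were prepared together. Sox7, Lamb1 and Dab2, and Col4a2 in shGFP, lie near background, where values depend most on its correction. The cause of these shifts was not tested.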
